A study of Mus musculus with 9 samples.

Results

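Macrophages live in every muscle from before birth, and 10 genes used to mark them and their leukocyte relatives were followed in the gastrocnemius of newborn mice with and without the exon 11 deletion of Shank3. The genes were Csf1r, Adgre1, Cd68, C1qa, C1qb, C1qc, Mrc1, Lyve1, Cd163 and Ptprc. They were taken by name, by a rule that holds no measured value, though with earlier results of these data known, and each of the 10 symbols matched 1 Ensembl gene among the 55471 in the table of counts. Bulk RNA sequencing was carried out on 5 homozygous Shank3Δ11(-/-) mice (KO1 to KO5) and 4 Shank3(+/+) mice (WT1 to WT4). The labels give the strain background C57BL/6 and postnatal day 0-1 for all 9. The methods name C57BL/6 for the wild types and C57BL/6JRj for the heterozygous matings that gave the knock-outs, so that any substrain difference and the genotype cannot be told apart. The knock-outs lacked exon 11 of the gene in every tissue, so that no difference can be placed in the muscle fibre or in the macrophage alone. The study set KO2 and KO4 aside for too few reads. The genotype comparison was therefore made first on 7 mice (all 4 wild types with knock-outs KO1, KO3 and KO5) and then on all 9.

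Tissue macrophages depend on the receptor Csf1r, which binds the growth factors Csf1 and Il34 and keeps the cells alive. Those that settle before birth take up dead cells, iron carriers and matrix fragments through receptors such as Mrc1, Cd163 and Lyve1, and they are a main source of the C1q proteins that start the classical complement pathway. In muscle they surround fibres and vessels, clear damaged fibres and guide regeneration. Ptprc (CD45) is carried by nearly all leukocytes and separates them from fibres, fibroblasts and vessels. In whole muscle, fewer cells of a type and less RNA per cell cannot be told apart.

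Total counts ran from 26444372 (KO5) to 40471957 (KO4), with a median of 31435732. KO4, set aside in the study, was thus the deepest of the deposited libraries, and KO2 held 28211941 counts. It could not be settled from the totals whether the deposited numbers KO2 and KO4 are the mice the study set aside, and each value from 7 mice rests on that numbering. Shank3 itself had 25.8 to 35.1 CPM (read counts scaled to library size) in the knock-outs and 32.5 to 38.5 CPM in the wild types. The ranges overlapped, and a count over the whole gene does not check a deletion of 1 exon. Skeletal muscle genes summed to 69837 to 78447 CPM in every library, which fits the labelled tissue. KO5 carried 1202 CPM of adipocyte genes against at most 467 in the others, KO1 5786 CPM of erythroid genes against at most 2196, and KO4 273 CPM of cartilage and bone genes against at most 131. The Y-linked genes summed to 190 to 248 CPM in 5 mice (KO1, KO2, KO4, WT1 and WT2) and to at most 0.423 CPM in the other 4, and the labels give no sex.

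All 10 genes were measured in all 9 mice and passed the filter on low counts. Counts were lowest for Ptprc, at 102 to 262 reads per mouse, and highest for Mrc1, at 1828 to 3777. The coefficient of variation over the 9 mice lay between 16.0% (C1qa) and 28.2% (Cd163), while counting error alone gives 2.12% (Mrc1) to 8.08% (Ptprc). On the CPM scale the highest mouse exceeded the lowest by 1.53-fold for C1qa and by 2.32-fold for Cd163.

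Levels of different genes were compared per length, as CPM per kilobase of exon (RPKM, mean ± SD, n = 9). C1qb stood at 27.5 ± 4.50 and C1qa at 18.8 ± 3.02, and C1qb was above C1qa in 9 of 9 mice. Lyve1 (13.4 ± 2.67), C1qc (12.3 ± 2.07) and Mrc1 (11.6 ± 2.16) followed within their spread of each other, Lyve1 being above C1qc in 7 mice and C1qc above Mrc1 in 6. Cd68 (6.75 ± 1.20) and Csf1r (6.39 ± 1.11) were likewise neighbours within their spread, with Cd68 above Csf1r in 7 of 9 mice. Adgre1 (2.96 ± 0.630), Cd163 (1.91 ± 0.539) and Ptprc (0.288 ± 0.0768) closed the order. The annotated exons of Ptprc add up to 18313 bases, more than any 1 transcript is likely to hold, so its level per length is a low estimate.

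**Figure D1:**
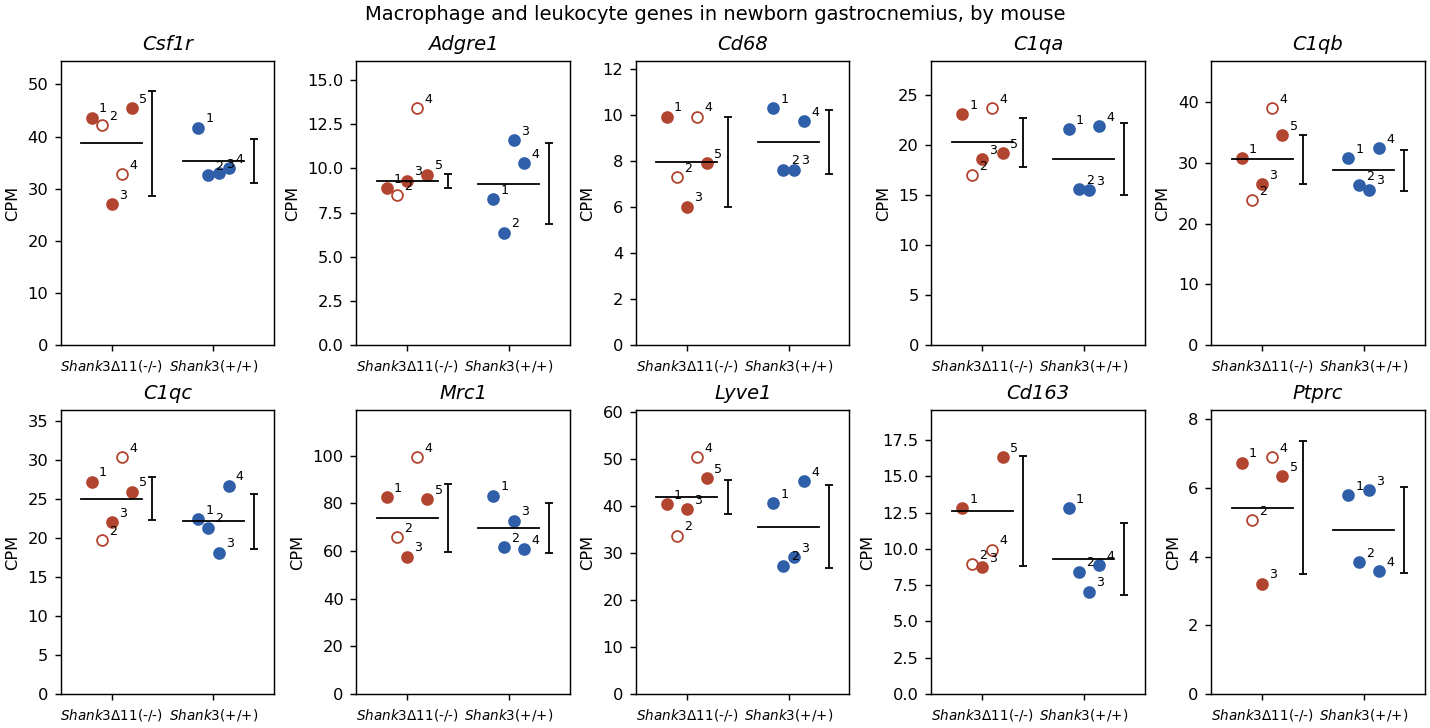
CPM of the 10 genes in each mouse, with Shank3Δ11(-/-) mice in red, Shank3(+/+) mice in blue and the mouse number beside each point. Lines and bars give the mean and SD of the 3 and 4 mice of the first comparison, open circles are KO2 and KO4, and the genotypes overlap in every panel.

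No member passed the test between the genotypes. In the 7 mice, 9 of the 10 genes were on the higher side in Shank3Δ11(-/-) mice and Cd68 on the lower, where 47.8% of all genes tested were higher. The count was 10 without KO3, 8 with library totals alone (Adgre1 at -0.00), 7 without KO1 and 5 without KO5. It was also 5 with a replicate block (mice grouped by number) in the 7 mice. Of the 10 genes, 0 had an unadjusted p below 0.05 by edgeR's quasi-likelihood test, by DESeq2 or by limma-voom. Over all 21809 genes tested, 1.16% were higher and 0.917% lower at that p, and 0% (0 genes) were called at p below 0.05 with a false discovery rate (FDR) below 25% (453 genes had p below 0.05, and DESeq2 called 6). The median log2 fold change of the 10 genes was 0.12 (-0.05 with the replicate block), beside -0.008 for all genes. In all 9 mice, 9 genes again lay on the higher side, with a median of 0.14 beside 0.002, and 0 of 10 had p below 0.05, against 1.16% higher and 0.874% lower, and 0% called (0 genes, 442 with p below 0.05), of 21735 genes. The 2 comparisons share 7 mice. For 0 of 10 genes did every knock-out lie above, or every knock-out below, every wild type. Among all genes this was so for 1.54% above and 1.30% below in 7 mice, and for 0.322% and 0.363% in 9. The FDR of each of the 10 genes was 1.00 in both comparisons.

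**Figure D2:**
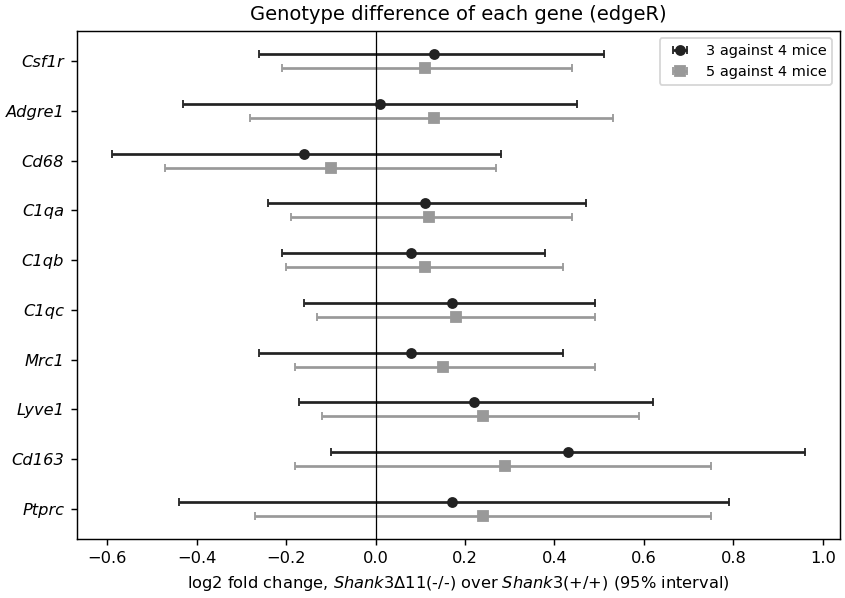
Log2 fold change of each gene in Shank3Δ11(-/-) over Shank3(+/+) mice with its 95% interval from edgeR, for 3 against 4 mice (black circles) and 5 against 4 mice (grey squares). Every interval includes 0, and the widest in 7 mice are those of Ptprc (-0.44 to 0.79) and Cd163 (-0.10 to 0.96).

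Csf1r, the CSF1 receptor (chr18:61100598-61132149, plus strand, GRCm38), was at 43.6, 42.2, 27.0, 32.8 and 45.4 CPM in KO1 to KO5 and at 41.7, 32.6, 33.0 and 33.9 CPM in WT1 to WT4. The knock-outs thus held both the lowest and the highest mouse. In the 7 mice the mean was 38.7 ± 10.2 CPM (SD, n = 3) against 35.3 ± 4.33 (n = 4), a log2 fold change of 0.13 ± 0.18 (SE, edgeR p = 0.491, exact permutation p = 0.686). Without KO3 the log2 fold change was 0.33, past an unadjusted p of 0.05 in edgeR but not the FDR, and without KO5 it was -0.01. Csf1r overlaps Hmgxb3 on the opposite strand, which held 5042 reads over the 9 mice against 10400 for Csf1r, and whether reads were assigned by strand is not given in the sources used here.

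Adgre1 encodes F4/80, the classical surface marker of mouse macrophages (chr17:57358691-57483527, plus strand). It was at 8.87, 8.49, 9.29, 13.4 and 9.65 CPM in the knock-outs and at 8.25, 6.36, 11.6 and 10.3 CPM in the wild types. Of the 5 knock-outs, 4 lay between 8.49 and 9.65 CPM and KO4 stood above them. In the 7 mice the log2 fold change was 0.01 ± 0.20 (SE, edgeR p = 0.950, exact permutation p = 0.829), with a 95% interval of -0.43 to 0.45. Cd68, a lysosomal glycoprotein of phagocytes (chr11:69664213-69666153, minus strand), was at 9.93, 7.31, 6.01, 9.94 and 7.90 CPM against 10.3, 7.63, 7.62 and 9.73 CPM. Its mean of 7.95 ± 1.96 CPM in 3 knock-outs lay below the 8.81 ± 1.39 CPM of the wild types by less than either SD, with a log2 fold change of -0.16 ± 0.20 (edgeR p = 0.444, exact permutation p = 0.629).

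The C1q genes encode the A, B and C chains of the complement component C1q, whose chains assemble in equal numbers. They lie side by side on the minus strand of chromosome 4, at chr4:136880129-136886187 (C1qb), chr4:136889804-136893065 (C1qc) and chr4:136895917-136898803 (C1qa). C1qb was at 30.8, 23.9, 26.5, 39.0 and 34.6 CPM in the knock-outs and at 30.8, 26.3, 25.6 and 32.4 CPM in the wild types. C1qa was at 23.1, 17.0, 18.6, 23.7 and 19.2 CPM against 21.6, 15.6, 15.5 and 21.9 CPM, and C1qc at 27.2, 19.7, 22.0, 30.3 and 25.9 CPM against 22.4, 21.3, 18.1 and 26.7 CPM. KO4 was the highest mouse and KO2 or WT3 the lowest for all 3 chains. The log2 fold changes in 7 mice were 0.11 ± 0.16 for C1qa, 0.08 ± 0.13 for C1qb and 0.17 ± 0.15 for C1qc (SE, edgeR p = 0.501, 0.553 and 0.281, exact permutation p = 0.429, 0.514 and 0.314). The interval of C1qb, the narrowest of the 10, ran from 0.862-fold to 1.30-fold.

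Ratios between the chains varied less than the chains themselves. Per length, C1qb exceeded C1qc by 2.01- to 2.51-fold, with a coefficient of variation of 7.30% over the 9 mice. C1qb exceeded C1qa by 1.27- to 1.72-fold (10.5%), and C1qa exceeded C1qc by 1.36- to 1.79-fold (8.54%). The ratios did not pass a test between the genotypes (exact permutation p in 9 mice of 0.238, 0.675 and 0.635). For comparison, the ratio of Lyve1 to Mrc1 had a coefficient of variation of 20.8% and that of Csf1r to Adgre1 28.0%. These pairs covaried less over the 9 mice, with a Pearson r of log2 CPM of 0.50 and -0.18, against 0.80 to 0.90 between the chains. No ratio of a C1q chain to Lyve1 was taken, so a steady ratio is not shown to be particular to the chains.

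Promoter windows from 250 bases before to 50 after the RefSeq start (GRCm38.p6) were given for 6 of the 10 genes, namely C1qb, C1qc, Cd68, Cd163, Mrc1 and Ptprc. The letters GAGGAA on either strand, the core of sites bound by PU.1 (Spi1) and other ETS factors, were found in 5 of the 7 windows of these genes (Ptprc has 2) and in 28.3% of the 32851 windows of the same length. Of the 6 genes, Cd163 alone had no such window. The longer PU.1 match GAGGAAGT, which contains the core, was found in C1qc and in 3.20% of all windows. The AP-1 letters TGANTCA occurred at 2 places in Cd68 (7.81% of all windows). TTGCNNCAA (C/EBP, 2.08%), TGCTGAC (MAF, 4.67%) and GAAA followed by any 2 bases and GAAA (IRF, 3.44%) were not in these windows. The 3 sequences below show where the core lies in both C1q promoters and in that of Mrc1, the most highly counted gene. They are written 5′ to 3′ on the strand of the gene and end before its annotated start, with the core or its reverse complement TTCCTC in capitals. They are C1qb at chr4:136886201-136886450 (minus), C1qc at chr4:136893066-136893164 (minus) and Mrc1 at chr2:14229164-14229391 (plus).

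C1qb: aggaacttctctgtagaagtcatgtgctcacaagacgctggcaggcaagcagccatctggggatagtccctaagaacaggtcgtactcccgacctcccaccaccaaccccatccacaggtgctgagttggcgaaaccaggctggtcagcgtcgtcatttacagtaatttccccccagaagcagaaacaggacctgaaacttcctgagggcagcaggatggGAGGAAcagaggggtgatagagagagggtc
C1qc: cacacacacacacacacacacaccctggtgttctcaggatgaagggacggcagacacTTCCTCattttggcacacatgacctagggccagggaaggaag
Mrc1: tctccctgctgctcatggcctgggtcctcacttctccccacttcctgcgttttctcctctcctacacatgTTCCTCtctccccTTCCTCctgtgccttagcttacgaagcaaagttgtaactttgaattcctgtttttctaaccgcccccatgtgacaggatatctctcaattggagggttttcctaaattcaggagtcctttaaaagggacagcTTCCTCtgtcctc

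Counted from the RefSeq start, the core began at position -30 in C1qb, at -193 in C1qc and at -180, -167 and -35 in Mrc1. A match of letters is a description of the sequence and not a measured binding site.

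Mrc1 encodes the mannose receptor CD206, which takes up glycoproteins and collagen fragments (chr2:14229392-14332057, plus strand). It was at 82.5, 65.9, 57.6, 99.3 and 81.7 CPM in the knock-outs and at 83.2, 61.7, 72.7 and 60.8 CPM in the wild types. KO1, KO5 and WT1 were nearly level, and the lowest mouse was a knock-out, KO3. The log2 fold change was 0.08 ± 0.15 in 7 mice (SE, edgeR p = 0.615, exact permutation p = 0.743) and 0.15 in 9 (0.337 and 0.437).

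Lyve1, a hyaluronan receptor of vessel-associated macrophages and of lymphatic endothelium (chr7:110850607-110863239, minus strand), was at 40.4, 33.7, 39.4, 50.4 and 46.0 CPM against 40.7, 27.3, 29.2 and 45.4 CPM. WT2 and WT3 were the 2 lowest mice, and WT1 and WT4 lay among the knock-outs. The means in 7 mice were 41.9 ± 3.55 CPM (n = 3) and 35.7 ± 8.81 CPM (n = 4), a log2 fold change of 0.22 ± 0.18 (SE, edgeR p = 0.231, exact permutation p = 0.343). Leaving out 1 mouse moved it from 0.12 (without WT2) to 0.37 (without WT4), and it was 0.15 without KO5 and without WT3. It passed an unadjusted p of 0.05 in edgeR without WT4, but not the FDR. Since lymphatic endothelium also carries Lyve1, the lymphatic genes were set beside it. Over the 9 mice Lyve1 had a Pearson r of 0.88 with Ccl21a, 0.80 with Pdpn, 0.70 with Mmrn1, 0.60 with Sema3d, 0.56 with Flt4 and 0.51 with Nr2f2. It had an r of -0.08 with Reln and of -0.63 with Prox1, the transcription factor of lymphatic identity, which other cells of muscle also express. Its r with C1qa was 0.88. C1qa had much the same r with some of these genes, 0.85 with Ccl21a, 0.81 with Pdpn, 0.69 with Mmrn1 and 0.65 with Sema3d. It had 0.39 with Flt4, 0.16 with Nr2f2, -0.17 with Reln and -0.29 with Prox1. Mrc1 had 0.92 with Sema3d, 0.63 with Pdpn, 0.59 with Mmrn1, 0.56 with Ccl21a, 0.32 with Flt4 and 0.26 with Nr2f2. The r with Ccl21a, Pdpn, Mmrn1 and Sema3d was thus not particular to Lyve1. With Flt4 and Nr2f2 it was higher for Lyve1 than for C1qa or Mrc1, and these differences were not tested. The share of the Lyve1 reads that came from lymphatic vessels was not tested.

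Cd163, the receptor for haptoglobin-bound haemoglobin (chr6:124304656-124330527, plus strand), had the largest log2 fold change of the 10 genes in both comparisons. It was at 12.8, 8.94, 8.72, 9.94 and 16.3 CPM in the knock-outs and at 12.8, 8.43, 7.04 and 8.89 CPM in the wild types. KO5, KO1 and WT1 were high, and the other 6 mice of both genotypes lay between 7.04 and 9.94 CPM. In 7 mice the means were 12.6 ± 3.79 CPM (n = 3) and 9.29 ± 2.48 CPM (n = 4), a log2 fold change of 0.43 ± 0.24 (SE, 95% interval -0.10 to 0.96, edgeR p = 0.0984, exact permutation p = 0.229). With KO2 and KO4 included the value was 0.29 (edgeR p = 0.209, exact permutation p = 0.294). Leaving out 1 mouse moved it from 0.20 (without KO5) to 0.64 (without KO3), and it was 0.63 without WT1. The last 2 passed an unadjusted p of 0.05 in edgeR, and the value without KO5 did not. The FDR stayed at 0.998 or above for every member under every alternative tried. The 2 highest knock-outs for Cd163 were also the library with the most adipocyte RNA (KO5) and the one with the most erythroid RNA (KO1), and the part of either in the value was not tested.

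Ptprc, the leukocyte phosphatase CD45 (chr1:138062861-138175708, minus strand), was at 6.74, 5.06, 3.21, 6.89 and 6.34 CPM against 5.79, 3.84, 5.94 and 3.58 CPM. The knock-outs held the lowest mouse (KO3) and the 3 highest, and the wild types lay between them. The log2 fold change was 0.17 ± 0.28 in 7 mice (SE, edgeR p = 0.546, exact permutation p = 0.743), the widest error of the 10. Its direction was not stable, at -0.01 without KO1, 0.44 without KO3 and -0.31 with the replicate block in 7 mice.

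Across mice most of the 10 genes covaried, with Csf1r and Adgre1 least. Taking the mean of their log2 CPM after centring each gene, KO4 (0.29), KO5 (0.21), KO1 (0.19) and WT1 (0.13) were high, WT4 was at 0.00, and KO2 (-0.14), WT3 (-0.16), KO3 (-0.24) and WT2 (-0.29) were low. In KO1, 9 of the 10 genes were above their own mean, and in WT2 0 of 10. High and low mice were found in both genotypes. Over the 45 pairs of genes the median Pearson r was 0.52 (Spearman's rho 0.52), 24 pairs were above 0.5 and 2 below 0. The median was 0.50 after the mean of each genotype was subtracted and 0.51 in the 7 mice. Single genes had a median r with the other 9 of 0.23 (Csf1r) to 0.67 (C1qb), while their median r with the 21734 other genes tested lay between -0.02 and 0.02. Of those other genes, 32.2% had an r with Csf1r of at least its 0.23, 21.2% an r with Adgre1 of at least its 0.39, and 3.81% (C1qa) to 11.4% (Ptprc) reached the median of the remaining 8.

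Tested over all orders of the 9 mice and adjusted over the 45 pairs by the Benjamini-Hochberg method, 6 pairs passed 0.05 by r and 4 by rho. The closest pair was Mrc1 and Ptprc, the mannose receptor and the leukocyte marker, with r = 0.92 and rho = 0.90 (exact permutation p = 2.48e-04 and 0.00203, adjusted 0.0112 and 0.0228). Leaving out KO3 and KO4, the mice farthest from the median of Mrc1, gave r = 0.92. Per length the ratio of Mrc1 to Ptprc ran from 35.2 to 51.5, with a coefficient of variation of 14.5%, although each gene alone varied by 18.6% and 26.7%. The size of the ratio rests on the 18313 bases counted for Ptprc and is a high estimate, while its variation does not depend on length. The other 5 pairs joined the C1q chains and Lyve1. C1qb and C1qc had r = 0.90 and rho = 0.92 (exact permutation p = 0.00152 and 0.00131, adjusted 0.0296 and 0.0197), with r = 0.83 without KO2 and KO4. C1qa and C1qc had r = 0.87 and rho = 0.97 (exact permutation p = 0.00376 and 1.65e-04, adjusted 0.0296 and 0.00744), with r = 0.76 without KO4 and WT3. Lyve1 had r = 0.88 with C1qa, 0.85 with C1qb and 0.85 with C1qc (exact permutation p = 0.00242, 0.00348 and 0.00395, each adjusted to 0.0296). The corresponding rho were 0.83, 0.92 and 0.83 (exact permutation p = 0.00827, 0.00131 and 0.00827, adjusted 0.0531, 0.0197 and 0.0531). These 3 values of r were 0.79, 0.85 and 0.72 without the pair of mice farthest from the median of the C1q gene. C1qa and C1qb missed the threshold after adjustment (r = 0.80, exact permutation p = 0.0133, adjusted 0.0854).

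**Figure D3:**
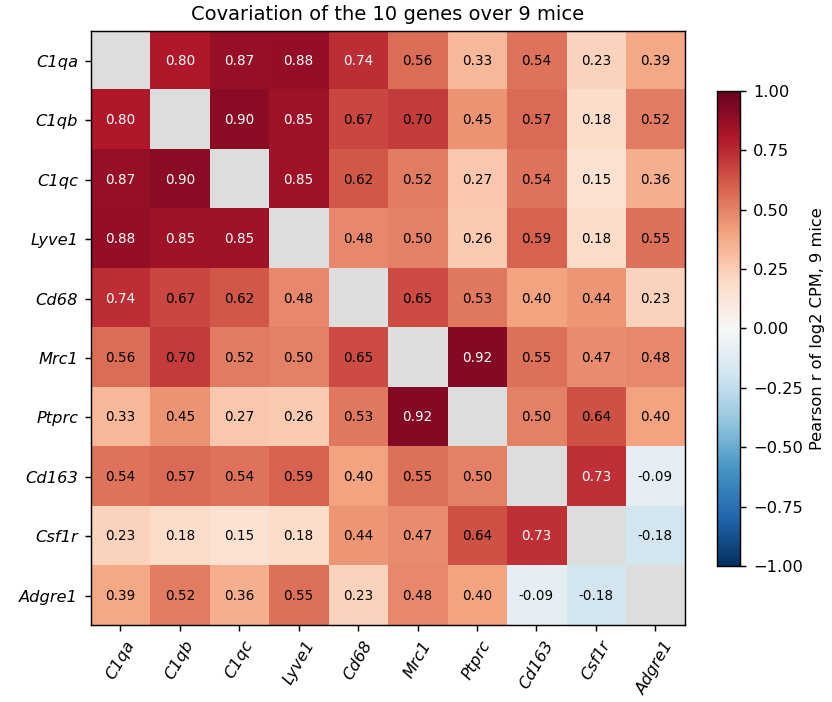
Pearson r of log2 CPM between each pair of the 10 genes over 9 mice, with the value printed in each cell and red for positive r. The C1q chains and Lyve1 form a block of 0.80 to 0.90, Mrc1 and Ptprc reach 0.92, and Adgre1 is negative with Cd163 and Csf1r.

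Csf1r and Adgre1 stood apart from these pairs. Csf1r was closest to Cd163 (r = 0.73, rho = 0.77, exact permutation p = 0.0249 and 0.0214, adjusted 0.130 and 0.107), and r was 0.49 without KO1 and KO5. Its r with the C1q chains was 0.15 to 0.23 in 9 mice and 0.51 to 0.75 in the 7, and with Mrc1 0.47 in 9 and 0.91 in 7, so that its distance from them depended on KO2 and KO4. Adgre1 had r of 0.36 to 0.55 with the C1q chains, Mrc1 and Lyve1, and all of these were below 0 without KO4 and WT2. Its r with Csf1r was -0.18 (rho = -0.08, exact permutation p = 0.643 and 0.843).

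Other genes of the macrophage programme were then placed beside the 10. In the 7 mice, 12 genes around CSF1 signalling and macrophage transcription (Csf1, Il34, Spi1 and others) had a median log2 fold change of 0.18, with 8 higher and 4 lower, and 2 of 12 passed an unadjusted p of 0.05 (0 without KO1, 1 without each of KO5, WT2 and WT3, and 3 without KO3, and 2 in all 9 mice). These were Csf2rb, the shared β chain of the GM-CSF, IL-3 and IL-5 receptors (9.06 ± 1.54 against 6.04 ± 1.27 CPM, n = 3 and 4, log2 fold change 0.58, edgeR p = 0.0116), and Maf, a transcription factor of resident macrophages (95.6 ± 10.9 against 78.7 ± 7.01 CPM, 0.27, p = 0.0371), each with an exact permutation p of 0.0857. In all 9 mice the edgeR p was 0.0149 for Csf2rb and 0.0192 for Maf, and the exact permutation p 0.0476 for each. The ligands of Csf1r did not pass it, and Csf1 was at 33.1 ± 4.40 against 33.5 ± 4.55 CPM and Il34 at 2.87 ± 0.283 against 2.63 ± 0.316 CPM (edgeR p = 0.858 and 0.539, exact permutation p = 0.971 and 0.371). Of 34 further macrophage genes, 33 were tested, 22 were higher and 11 lower, and 1 passed that p. With 1 mouse left out this count was 4 without KO3 or WT1 and 0 without KO5, WT2, WT3 or WT4, and in all 9 mice it was 0. It was Clec10a, a lectin of alternatively activated macrophages and dendritic cells. Clec10a was at 9.19 CPM in KO5 and at most 4.42 CPM elsewhere (log2 fold change 1.19, edgeR p = 0.0285 and exact permutation p = 0.143 in 7 mice, 0.115 and 0.270 in 9). Vsig4, a complement receptor of some resident macrophages, had 0 to 3 counts per mouse, and Timd4, which marks long-lived residents elsewhere, 0.125 to 0.836 CPM.

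Of 20 pan-leukocyte genes, 15 were higher and 5 lower with a median of 0.06, and 1 passed p of 0.05 (1 to 3 with 1 mouse left out, the most without KO3). It was Rac2, the haematopoietic Rac GTPase, at 8.93, 7.88, 7.81, 7.49 and 10.3 CPM in the knock-outs and at 6.71, 4.29, 5.29 and 6.09 CPM in the wild types. Every knock-out was above every wild type, KO2 and KO4 included, as for 1.54% of all genes in 7 mice and 0.322% in 9, and Rac2 was named for its small p. The log2 fold change was 0.68 ± 0.18 in 7 mice (SE, edgeR p = 0.00375, FDR 1.00), and the exact permutation p of 0.0286 in 7 mice and 0.00794 in 9 are the smallest these group sizes can give. The complement list had 17 of 20 genes tested, 13 higher and 4 lower, and C3 alone passed that p (log2 fold change 3.11, edgeR p = 0.0283, exact permutation p = 0.200, and 0.0635 and 0.270 in 9 mice), being at 25.9 CPM in KO5 and at most 4.79 CPM in the other mice. The complement count was 3 without WT1, 2 without KO1 or KO3 and 0 without KO5, WT2 or WT3. Of 14 scavenger receptor genes, 11 were tested, with 5 higher, 6 lower and 0 at that p. None of these genes, the 10 members included, passed the FDR.

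Markers of the other cells that a muscle can hold were measured as well. In the 7 mice the dendritic cell list had 8 of 11 genes tested and 0 at p below 0.05, the monocyte list 6 of 8 and 0, the T cell list 7 of 13 and 0, the B cell list 2 of 11 and 0, and the osteoclast list 8 of 9 and 0. The osteoclast count was 7 without KO1 and 4 by limma-voom. Of the 8 osteoclast genes tested in 7 mice, 6 were lower, with a median of -0.85. In all 9 mice 5 of 9 were lower, with a median of -0.07. The natural killer cell list summed to 0.237 to 0.456 CPM and had no gene that passed the filter. Of 9 neutrophil genes tested, 7 were lower, with Ngp at p = 0.0153 (0.649 ± 0.496 against 1.70 ± 0.630 CPM, n = 3 and 4, edgeR, exact permutation p = 0.0857), and at 0.00451 and 0.0397 in all 9 mice. Of 10 mast cell genes 8 were higher, with the protease Mcpt4 at edgeR p = 0.0285 (exact permutation p = 0.114), which was 0.112 in 9 mice. The lymphatic list had 6 of 8 genes higher, with Mmrn1 at edgeR p = 0.0345, and the fibroblast list 4 of 7 higher, with Dpt at edgeR p = 0.0319 (exact permutation p = 0.0857 and 0.143), which were 0.0503 and 0.0459 by edgeR in all 9 mice. The blood endothelium list had 10 of 10 genes higher, 0 at that p, with a median of 0.11. Adipocyte genes were higher in 6 of 6, 5 at that p (median 3.12, 1 at that p without WT1 or WT4, 2 without KO5 and 2 in all 9 mice). Erythroid genes were higher in 7 of 7 with 0 at that p (median 0.87, with 5 at that p without KO5 and 3 without KO3). These counts stand beside the uneven libraries KO5 and KO1 named above. Cartilage and bone genes were higher in 1 of 7 with 0 at that p (median -0.25, with 3 at that p without KO1). KO4, the library with the most cartilage and bone RNA, is not among these 7 mice. In all 9 mice 5 of 7 cartilage and bone genes were higher, with a median of 0.16. With 1 mouse left out, the counts at that p were 0 to 3 for the neutrophil, mast cell and cartilage lists, 0 to 2 for the lymphatic, fibroblast and dendritic cell lists, 0 to 1 for the blood endothelium, scavenger receptor and T cell lists, and 0 for the monocyte and B cell lists.

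The mean of the 10 genes was compared across the 9 mice with each of these lists. The wider macrophage genes had a median r of 0.46 with it (14 of 33 above 0.5), the CSF1 receptor axis 0.58 (7 of 12), complement 0.57 (9 of 17) and the pan-leukocyte genes 0.56 (13 of 20). Over all 21735 genes tested, the median was -0.00 and 6.89% were above 0.5. The highest median was that of the B cell list, 0.74, which rests on 2 genes (2 of 2). Fibroblast genes reached 0.66 (5 of 7), with Dcn at the top, lymphatic genes 0.49 (4 of 8), neutrophil genes 0.47 (3 of 9) and adipocyte genes 0.46 (2 of 6), so that the association was not confined to leukocytes. Their part in the covariation of the 10 genes was not tested. T cell genes (0.02), mast cell genes (0.01), dendritic cell genes (0.20), scavenger receptors (0.21), cartilage and bone genes (0.21), skeletal muscle genes (0.23), erythroid genes (0.30), monocyte genes (0.31), osteoclast genes (0.31) and blood endothelium genes (0.38) had lower medians. These r are descriptions over the same 9 libraries.

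**Figure D4:**
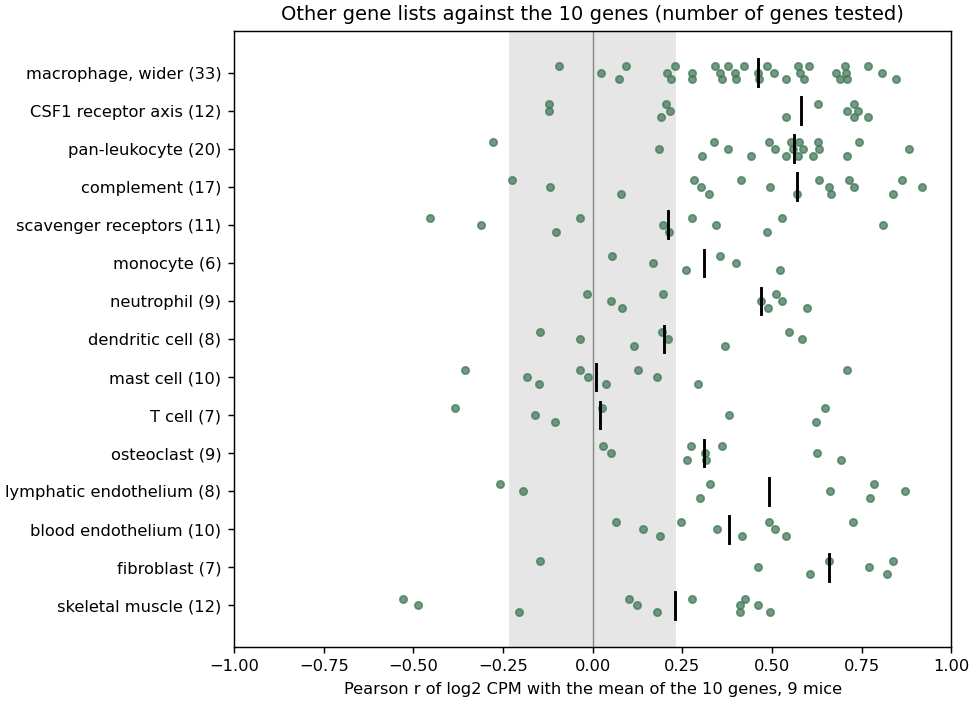
Pearson r over 9 mice between each gene of a list and the mean log2 CPM of the 10 genes, 1 point per gene, with the median of each list as a black line and the interquartile range of all genes tested (-0.23 to 0.23) in grey. Fibroblast (0.66), CSF1 receptor axis (0.58), complement (0.57) and pan-leukocyte (0.56) genes lie to the right, and T cell (0.02) and mast cell (0.01) genes centre near 0.

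The genes most like the mean of the 10, out of those with a mean of at least 1 CPM, were Mapt (r = 0.94), Cryl1 (0.93), Ugt1a7c, Fam167a, Xpnpep2, Sulf2 and Cfb (0.92 each), Pld4 and Alox5ap (0.91 each) and Serpinf1 (0.90). Spearman's rho of the 10 lay between 0.83 and 0.98. They were picked for the highest r among all genes over 9 mice, so that their r is a description. Among them Cfb encodes complement factor B, and Alox5ap and Pld4 are known from leukocytes.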

How the data were processed

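RNA of the gastrocnemius of 9 mice was sequenced. The authors mapped reads to mm10 (GRCm38) with HISAT2, kept concordant pairs and counted them per gene with featureCounts, and the deposited values are raw counts of reads per gene. Not given in the sources used here are the gene annotation used for counting, strand settings and how multi-mapping reads were handled. Ensembl IDs were named from the GENCODE M21 annotation.

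Counts were tested with edgeR 4.0.16 in R 4.3.3 (quasi-likelihood, robust, TMM scaling, filterByExpr with a minimum count of 10 and a total of 15), with Benjamini-Hochberg adjustment over all genes. This gives KO1, KO3 and KO5 against 4 wild types, after the study's choice of mice, and then all 9. CPM used TMM library sizes, log2 CPM a prior count of 2, and RPKM the summed exon length. Permutation tests were 2-sided, exact and on mean log2 CPM. Alternatives were other filters and scalings, DESeq2 1.42.0, limma-voom (limma 3.58.1), a replicate block, Y-linked level as a covariate and each mouse left out. The fit was tested on simulated data with changes larger than those fitted for the 10 genes, so that it says nothing on changes of their size. Every pair of libraries differed by more than sampling noise. Named genes were the 10, the list genes of smallest p (up to 3 per direction below 0.05), and the 10 genes most like their mean. Csf1, Il34, Vsig4, Timd4, Dcn and the lymphatic genes were named for their role or rank, outside that rule and after their values were seen, and Shank3 as the deleted gene. The members and lists were chosen with earlier results of these data known. Nothing beyond the numbering states how mice were related, and litters are not given.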

Additional observations from a re-analysis of the deposited data

Results flagged for a closer look

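In the wild types, Csf1r was at 41.7 CPM in WT1 and at 32.6 to 33.9 CPM in the other 3, so that WT1 lay far from its group by Dixon's criterion. In the knock-outs, Adgre1 was at 13.4 CPM in KO4 and at most 9.65 CPM in the other 4, which met the same criterion. These were 2 of 20 groups examined (10 genes in 2 genotypes), and chance flags about 1 in 20. KO4 is 1 of the 2 mice that the study left out.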

How the results depend on the processing

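Over 17 alternatives, 155 of 170 fold changes of the 10 genes kept their direction and 15 turned, in 6 genes. Csf1r, Adgre1, Mrc1 and Ptprc were at -0.11, -0.12, -0.18 and -0.31 with a replicate block in 7 mice. With it 5 of the 10 genes were higher and 5 lower. Adgre1 was at -0.00 with library totals alone and at -0.04 with the Y-linked level as a covariate. Leaving out 1 mouse gave -0.01 to 0.33 for Csf1r, -0.13 to 0.16 for Adgre1, -0.35 to 0.01 for Cd68, -0.02 to 0.18 for C1qb, -0.00 to 0.23 for Mrc1 and -0.01 to 0.44 for Ptprc. The other 4 stayed above 0, at 0.20 to 0.64 for Cd163, 0.12 to 0.37 for Lyve1, 0.01 to 0.20 for C1qa and 0.09 to 0.28 for C1qc. Cd163 was at 0.14 with the replicate block in 7 and in 9 mice. The number of the 10 genes with p below 0.05 was 1 with the replicate block in 7 mice (C1qc, 0.28) and 0 to 2 with 1 mouse left out. Their median log2 fold change stayed between 0.02 and 0.24 except under that block, where it was -0.05, and the median r over pairs stayed between 0.45 and 0.59.

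The count of all genes with p below 0.05 was 972 without a filter, 844 with the replicate block in 7 mice and 224 to 968 with 1 mouse left out. Genes called at an FDR below 25% numbered 1 without a filter, 6 by DESeq2, 9 and 2 with the replicate block in 7 and 9 mice, and 0 to 15 with 1 mouse left out (15 without KO1). None of the 10 genes was among them. Same-numbered mice correlated at 0.37, 0.05, 0.36 and 0.10, and mice of different number at -0.44 to 0.28. KO1 with WT1 (0.37) and KO3 with WT3 (0.36) thus exceeded every pair of different number. The main comparison did not pair the mice by number, and whether the numbers link them was not settled. Of 357 counts over the other lists, 91 moved by over 1.5 times. With 3 and 4 mice, the 95% intervals of the 10 genes together reach from 0.664- to 1.95-fold.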
